A study of Danio rerio with 6 samples.

Results

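Hox genes encode homeodomain transcription factors that give cells their position along the head-to-tail axis. They lie in clusters, and within a cluster the genes are numbered by paralogue group, with low numbers expressed towards the head and high numbers towards the tail. The zebrafish keeps 7 clusters, named hoxaa, hoxab, hoxba, hoxbb, hoxca, hoxcb and hoxda, because a genome duplication in the ancestor of teleost fish was followed by the loss of genes and of a whole D cluster. In the embryo, hox genes are best known from the hindbrain, spinal cord, somites, fins and lateral plate mesoderm, the last of which gives rise to endothelium and blood.

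The hox genes were described in GFP-positive cells sorted at the 15 somite stage from embryos of transgenic zebrafish lines. Apart from the reporter insertions the embryos were of wild-type genotype. There were 3 libraries from Gt(SAGFF27C); Tg(4xUAS:egfp) embryos, named Gt(endocard:egfp) in the study, and 3 from Tg(fli1a:egfp) embryos. In the former line a Gal4 gene trap drives egfp in the endocardium, the inner lining of the heart, and only the cells of high GFP were kept, because cardiomyocytes express the reporter weakly. In the latter line the fli1a promoter drives egfp in endothelium, endocardium included, and in blood cells. Homozygous Gt(endocard:egfp) and heterozygous Tg(fli1a:egfp) fish were crossed to wild-type fish, and libraries were made by Smart-seq2, which copies full-length mRNA, from 2 ng of total RNA per sample.

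Members were the genes whose symbol in the deposited table is that of a hox gene of clusters A to D with a copy letter. This rule was met by 37 of the 19722 genes listed, out of 49 hox genes in a written list of the zebrafish clusters. The level used here is the mean that the authors give for each gene over the 6 libraries, in log2 CPM (read counts scaled to the size of the library, on the log2 scale). It is 1 value for both lines together, so it has no error here, it does not tell which line a gene was read in, and the lines were not compared. Nor can it tell few cells with much of an mRNA from many cells with little. CPM grows with transcript length and no lengths were used here, so no gene is said to be more strongly expressed than another. CPM values were turned back from the mean of log2 values, which makes them geometric means over the libraries and not mean CPM. Sums and shares of such values are therefore not shares of reads.

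A mean of at least 1 CPM (0 log2 CPM) was taken as enough to judge a gene. Of the 37 hox genes 30 reached it (81.1%), beside 14582 of all 19722 genes (73.9%). The median of the hox genes was 1.69 log2 CPM (3.23 CPM), and that of all genes was 2.58 log2 CPM (5.98 CPM). The values ran from -2.39 log2 CPM for hoxc12b to 4.43 log2 CPM for hoxb7a, and 10 of the 37 lay above the median of all genes. The geometric means of the hox genes summed to 182 CPM, or 0.0190% of the same sum over all genes of the table. Close to the minimum, hoxd13a was just inside with 0.01 log2 CPM (1.01 CPM) and hoxa13b was just outside with -0.09 log2 CPM (0.939 CPM).

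**Figure D1:**
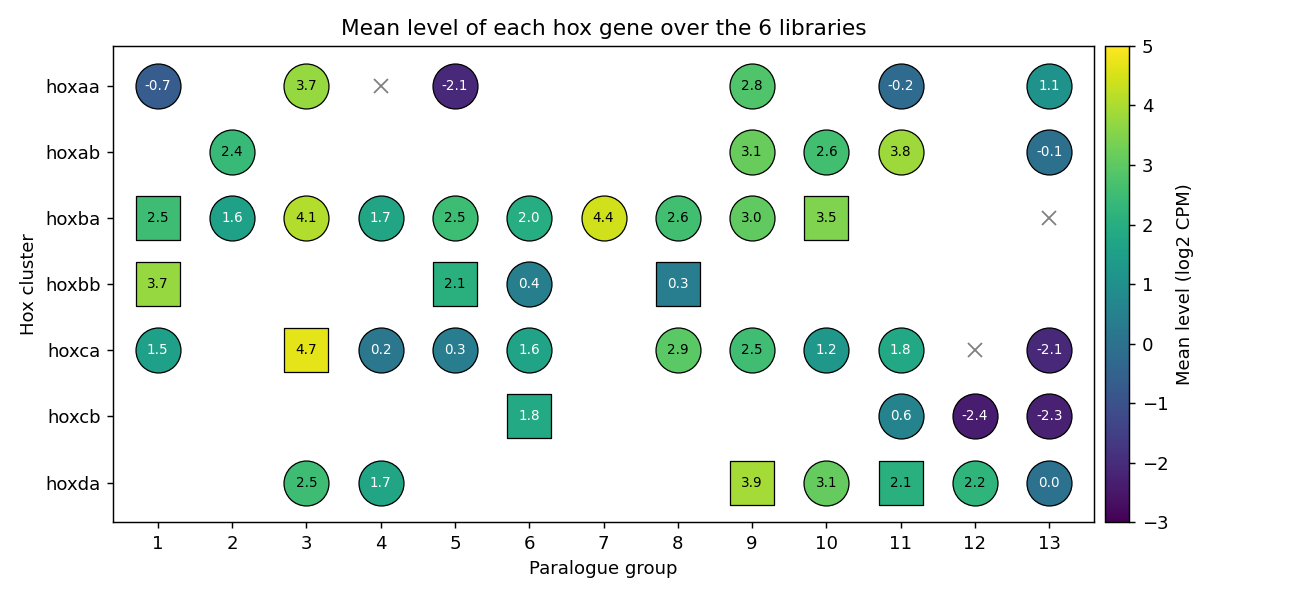
Mean level of each hox gene over the 6 libraries in log2 CPM, with clusters as rows and paralogue groups as columns. Circles are genes with a hox symbol in the table, squares are genes named by the gene name list only, and crosses are genes of the written list found in neither way; the lowest circles, at -2.39 to -2.07 log2 CPM, are hoxc12b, hoxc13b, hoxa5a and hoxc13a.

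The number of genes that could be judged was counted in each cluster, against 73.9% of all genes in the table. In hoxba 8 of 8 listed genes reached 1 CPM, and in hoxda 5 of 5 did. In hoxca the count was 8 of 9, and in hoxab it was 4 of 5. In hoxaa 3 of 6 reached it, and in hoxcb 1 of 3 did. hoxbb had a single listed gene, hoxb6b, with 0.43 log2 CPM, so that this cluster could hardly be described from the symbols of the table. The order of the clusters depended on the minimum, and the share of all genes was counted only at 1 CPM. At 0.5 CPM the counts were 5 of 6 in hoxaa and 5 of 5 in hoxab, and at 5 CPM they were 4 of 5 in hoxab, 5 of 8 in hoxba, 2 of 5 in hoxda and 2 of 9 in hoxca. With so few genes per cluster and no value per library, these counts were not tested against each other. Nor were the clusters counted without the genes whose span meets another hox gene, described below. hoxab and hoxcb have no such gene among those listed.

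Of the hoxba genes, hoxb7a had a mean of 4.43 log2 CPM (21.5 CPM), at percentile 69.6 of all genes. In zebrafish, hoxb7a and hoxa9a are known as genes that can restore blood formation in embryos lacking cdx4. hoxb3a had 4.09 log2 CPM (17.0 CPM), hoxb9a 3.05, hoxb8a 2.59 and hoxb5a 2.47 log2 CPM. The remaining members of the cluster were hoxb6a with 1.96, hoxb4a with 1.69 and hoxb2a with 1.58 log2 CPM. hoxb2a, hoxb3a and hoxb4a are best known from the hindbrain, whereas hoxb5a to hoxb9a belong to the trunk. No listed gene of hoxba lay below 1 CPM, and the cluster, with 8 of the 37 hox genes, held 37.6% of their summed CPM. Such a share also depends on the number and transcript lengths of the listed genes, here and for the clusters below. The span of hoxb3a meets those of hoxb4a, hoxb5a and hoxb6a, so the values of these genes are uncertain, as described below.

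Of the A clusters, hoxab had 4 of 5 genes at 1 CPM or more and hoxaa had 3 of 6, against 5 of 5 and 5 of 6 at 0.5 CPM. In hoxab, hoxa11b had a mean of 3.81 log2 CPM (14.1 CPM), hoxa9b 3.13, hoxa10b 2.57 and hoxa2b 2.39 log2 CPM. hoxa2b sets the identity of the second pharyngeal arch and is a gene of the hindbrain and cranial neural crest, while hoxa9b to hoxa13b are posterior genes that also act in the fins. hoxa13b alone was below 1 CPM, with 0.939 CPM. In hoxaa, hoxa3a had 3.75 log2 CPM (13.4 CPM), hoxa9a 2.80 and hoxa13a 1.07 log2 CPM. Below 1 CPM lay hoxa11a with -0.24 log2 CPM (0.849 CPM), hoxa1a with -0.66 log2 CPM (0.632 CPM) and hoxa5a with -2.08 log2 CPM (0.237 CPM). At 1 CPM hoxaa therefore had judged and unjudged genes at its anterior end and at its posterior end alike. At 0.5 CPM hoxa5a alone was not judged. The span of hoxa3a meets that of hoxa5a, so the values of both are uncertain, as described below. Among the genes listed by symbol, hoxab held 19.2% of the summed hox CPM and hoxaa 13.3%. Both shares fell with the gene name list, described below.

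In hoxca the trunk gene hoxc8a had a mean of 2.94 log2 CPM and hoxc9a one of 2.54 log2 CPM. hoxc11a had 1.80, hoxc6a 1.65, hoxc1a 1.52 and hoxc10a 1.23 log2 CPM. hoxc5a with 0.35 and hoxc4a with 0.16 log2 CPM were close to the minimum, and hoxc13a, the gene nearest the posterior end among those listed, was below it with -2.07 log2 CPM. Thus each listed hoxca gene of groups 1 to 11 reached the minimum. Of these, hoxc4a, hoxc5a, hoxc6a, hoxc8a and hoxc9a meet the span of hoxc3a, so their values are uncertain, as described below. In hoxcb, hoxc11b was judged with 0.57 log2 CPM, and hoxc12b with -2.39 and hoxc13b with -2.27 log2 CPM were not. hoxca held 15.3% of the summed hox CPM, hoxcb 1.04% and hoxbb 0.741%.

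In hoxda the means were 3.11 log2 CPM for hoxd10a, 2.504 for hoxd3a, 2.20 for hoxd12a, 1.69 for hoxd4a and 0.01 for hoxd13a. hoxd10a to hoxd13a are posterior genes that are also expressed in the fins, and hoxd3a and hoxd4a are expressed in the posterior hindbrain and beyond. The cluster held 12.7% of the summed hox CPM, and hoxd13a was its only gene within a factor of 2 of the minimum.

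**Figure D2:**
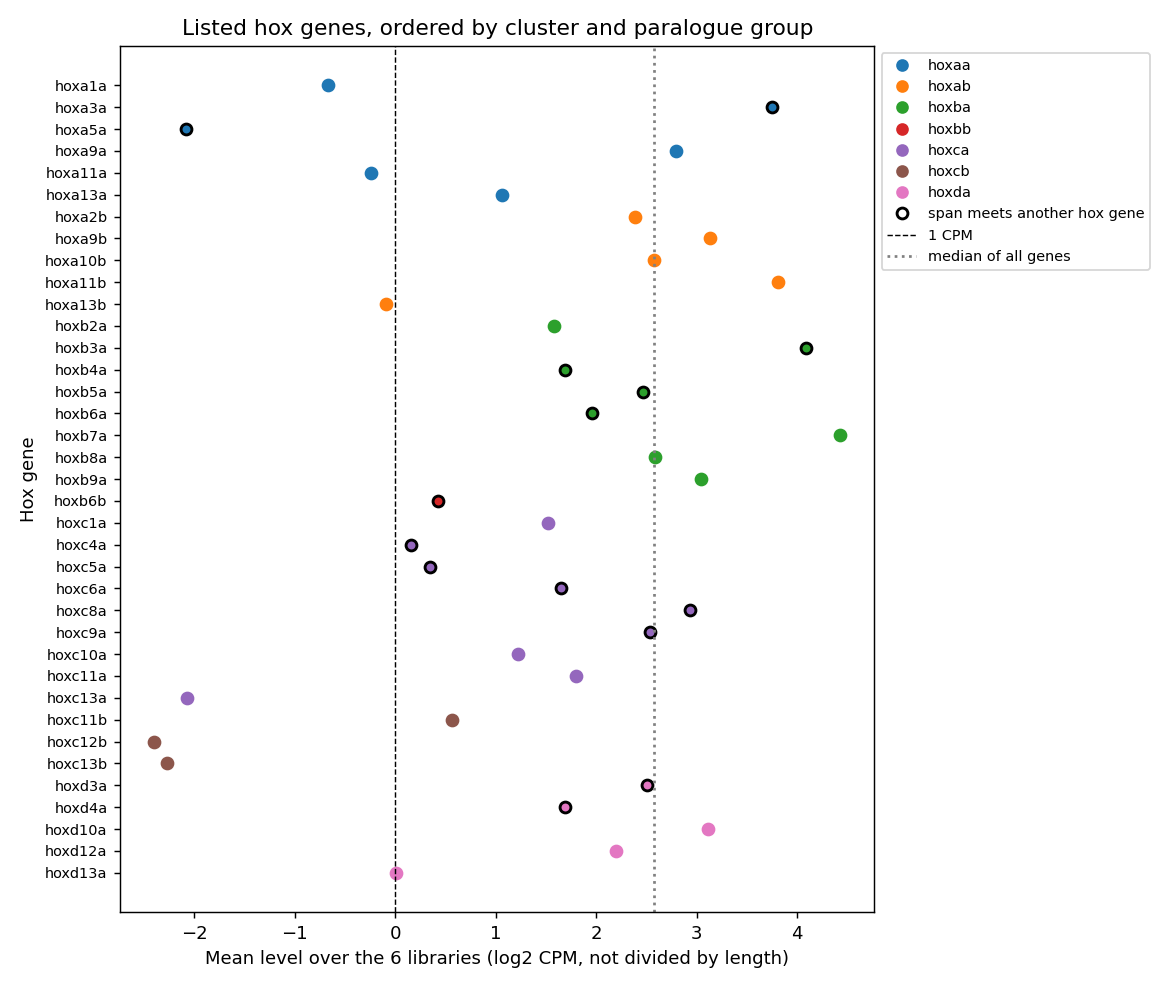
Mean level over the 6 libraries of the 37 listed hox genes in log2 CPM, not divided by length, ordered by cluster and paralogue group, with the 1 CPM minimum dashed and the median of all genes dotted. A black rim marks the 14 genes whose span meets that of another hox gene in RefSeq; the 7 points left of the dashed line are in hoxaa, hoxab, hoxca and hoxcb.

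By paralogue group, 6 of the 7 anterior genes (groups 1 to 3), 11 of the 12 central genes (groups 4 to 8) and 13 of the 18 posterior genes (groups 9 to 13) reached 1 CPM. The posterior share was 72.2%, close to the 73.9% of all genes. The posterior genes below 1 CPM were hoxa11a, hoxa13b, hoxc12b, hoxc13a and hoxc13b. Group 13, whose genes pattern the tail and the tips of the fins, had 2 judged genes of 5, hoxa13a and hoxd13a. The other genes below 1 CPM were hoxa1a of group 1 and hoxa5a of group 5. The study shows GFP at this stage in endocardial progenitors of Gt(endocard:egfp), and in trunk and head endothelium and endocardium of Tg(fli1a:egfp). Each level is a mean over both lines, so a gene read mainly in 1 line can fall below 1 CPM. How this bears on the counts and medians of the groups was not tested. The groups differ in how many of their genes meet another hox gene in RefSeq, as described below. All listed central genes do, except hoxb7a and hoxb8a. So do hoxa3a, hoxb3a and hoxd3a of the anterior genes, but only hoxc9a of the listed posterior genes. Of such genes 13 of 14 reached 1 CPM, and of the others 17 of 23. The groups were not counted without the overlapping genes. The median was 2.39 log2 CPM for the anterior, 1.69 for the central and 1.51 for the posterior genes. This order did not hold under other choices. With group 4 counted as anterior the medians were 1.69 log2 CPM for the anterior and 1.96 for the central genes, and with the genes of the gene name list they were 1.69 for the central and 2.08 for the posterior genes. The ranges overlapped, from -0.66 to 4.09 log2 CPM for the anterior, from -2.08 to 4.43 for the central and from -2.39 to 3.81 for the posterior genes.

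Genes of a group lay on both sides of the minimum in different clusters. In group 5, hoxa5a was below 1 CPM while hoxb5a and hoxc5a were not. In group 11, hoxa11b, hoxc11a and hoxc11b were judged and hoxa11a was not. Of the 11 gene pairs that the duplication left in the written list, 6 had both copies listed by symbol, and 3 of these had both at 1 CPM or more. These 3 were hoxa9a and hoxa9b with 2.80 and 3.13 log2 CPM, hoxb6a and hoxb6b with 1.96 and 0.43 log2 CPM, and hoxc11a and hoxc11b with 1.80 and 0.57 log2 CPM. The copies fell on different sides of the minimum for hoxa11a and hoxa11b, with -0.24 and 3.81 log2 CPM, and for hoxa13a and hoxa13b, with 1.07 and -0.09 log2 CPM. Both hoxc13 copies were below it. hoxa11a with 0.849 CPM and hoxa13b with 0.939 CPM were just under the minimum, and at 0.5 CPM 5 of the 6 pairs had both copies judged. With the gene name list, described next, it was 7 of 10 pairs at 1 CPM. The values of the copies stand side by side here and were not compared, since their transcripts may differ in length and near-identical stretches may share reads.

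The table gives no symbol to some identifiers, and a separate gene name list named 9 more of them as hox genes. All 9 had a mean of at least 1 CPM. They filled gaps of hoxbb with hoxb1b at 3.72 log2 CPM and hoxb8b at 0.35 log2 CPM. In hoxba they gave hoxb1a, a gene of rhombomere identity in the hindbrain, at 2.51 log2 CPM and hoxb10a at 3.47 log2 CPM. hoxc3a was found in the same way at 4.67 log2 CPM. For the other 4 the gene name list gives no copy letter. They were HOXB5 with 2.07, HOXC6 with 1.82, HOXD9 with 3.91 and HOXD11 with 2.08 log2 CPM, and each was placed as the only hox gene of that number still unaccounted for (hoxb5b, hoxc6b, hoxd9a and hoxd11a). Together with them 39 of 46 hox genes reached 1 CPM, with 4 of 4 in hoxbb, 10 of 10 in hoxba, 7 of 7 in hoxda and 2 of 4 in hoxcb. hoxbb then held 7.53% of the summed hox CPM and hoxcb 2.04%. The shares of the other clusters became 32.1% for hoxba, 20.1% for hoxca, 16.0% for hoxda, 13.2% for hoxab and 9.12% for hoxaa. The order of the clusters by share thus depended on which genes had a symbol. hoxa4a, hoxb13a and hoxc12a were found in neither way and were not analysed here.

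Some hox genes overlap in the annotation, which bears on how far a value belongs to 1 gene. In RefSeq for GRCz12tu, another assembly than the one the reads were mapped to, 14 of the 37 genes have a span that meets that of another hox gene. All 4 genes of group 3 found in either way meet others. hoxa3a meets hoxa4a and hoxa5a, and hoxb3a meets hoxb4a, hoxb5a and hoxb6a. hoxc3a meets hoxc4a, hoxc5a, hoxc6a, hoxc8a and hoxc9a, and hoxd3a meets hoxd4a. In hoxbb, where only hoxb8b meets no other hox gene, hoxb1b likewise meets hoxb5b and hoxb6b. Whether 1 span holds the whole of another was not determined. These spans include introns, Smart-seq2 reads carry no strand, and how reads in shared stretches were counted is not given in the sources used here, so the values of these genes are uncertain. Of the 23 listed genes that meet no other hox gene, 17 reached 1 CPM, a share of 73.9%, which is that of all genes. hoxb7a, hoxb8a, hoxb9a, hoxa9a, hoxa9b, hoxa10b, hoxa11b and hoxd10a are among these 17. Only overlap with hox genes was considered there. When any other gene is counted, 26 of the 37 spans meet one, and hoxa9a, hoxa9b, hoxa10b and hoxa11b are among them.

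Factors that act with hox proteins or on hox genes were read as well, beside the 73.9% of all genes that reached 1 CPM. With lists this short, their counts were not tested against that share. Pbx and Meis proteins are homeodomain cofactors that bind DNA beside Hox proteins. Of the Pbx list, 4 of the 5 genes found had at least 1 CPM, with pbx4 at 7.87 log2 CPM and pbx1b, the exception, at -0.84 log2 CPM. Of the Meis and Pknox list it was 6 of 7, the exception being pknox1.2 with -0.09 log2 CPM. cdx4, a caudal factor upstream of hox genes in blood formation, had a mean of 5.80 log2 CPM and cdx1a one of 1.75 log2 CPM. Retinoic acid is a signal that switches on anterior hox genes, and all 7 genes found of its list were above the minimum. aldh1a2, which makes the signal, had 2.69 log2 CPM, and rarga, a receptor, had 5.70 log2 CPM. cyp26c1, cyp26b1 and cyp26a1, which break the signal down, had 3.55, 1.86 and 1.68 log2 CPM. All 10 of the Trithorax and Polycomb list, chromatin factors that keep hox genes on or off, were above the minimum too, with a median of 5.55 log2 CPM. gmnn, whose protein Geminin can bind Hox proteins, had 4.59 log2 CPM, and gdf11, a ligand that sets the onset of posterior hox genes, 0.99 log2 CPM. evx1, a homeobox gene that borders a hox A cluster, was below 1 CPM with -0.48 log2 CPM. Members of these lists found in neither way were pbx3a, meis1b, cdx1b, evx2 and rargb, so they are not in these counts.

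Because hox genes are active in many tissues of the embryo, the markers of cell types that a sort could hold were read on the same scale. All 16 pan-endothelial markers found were above 1 CPM, between 5.69 and 10.22 log2 CPM, as were the 5 endocardial markers, between 4.13 and 9.55 log2 CPM. All 11 red blood markers and the 4 myeloid markers found, of 6 in that list, were above it too, with medians of 6.75 and 7.87 log2 CPM. Markers of other tissues are given beside the 73.9% of all genes that reached 1 CPM. All 7 neural markers found lay above 1 CPM, from 1.14 to 6.48 log2 CPM, as did both hindbrain markers, egr2b with 3.30 and mafba with 5.71 log2 CPM. The same held for all 5 neural crest markers, from 0.26 log2 CPM for crestin to 5.03 log2 CPM for tfap2a, and for all 4 pronephros markers, with a median of 2.67 log2 CPM. Of 8 somite and skeletal muscle markers 6 were above it, with mespba and pax3a below, and of 6 myocardial markers 5 were, with tbx5a below. Of the pectoral fin field, fgf24 had 3.22 and tbx5a -1.48 log2 CPM. The markers fli1b, lyz, csf1ra, myh6 and olig2 were found in neither way, so their levels are unknown and they are not in these counts. The part of these tissues in the hox values was not tested.

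**Figure D3:**
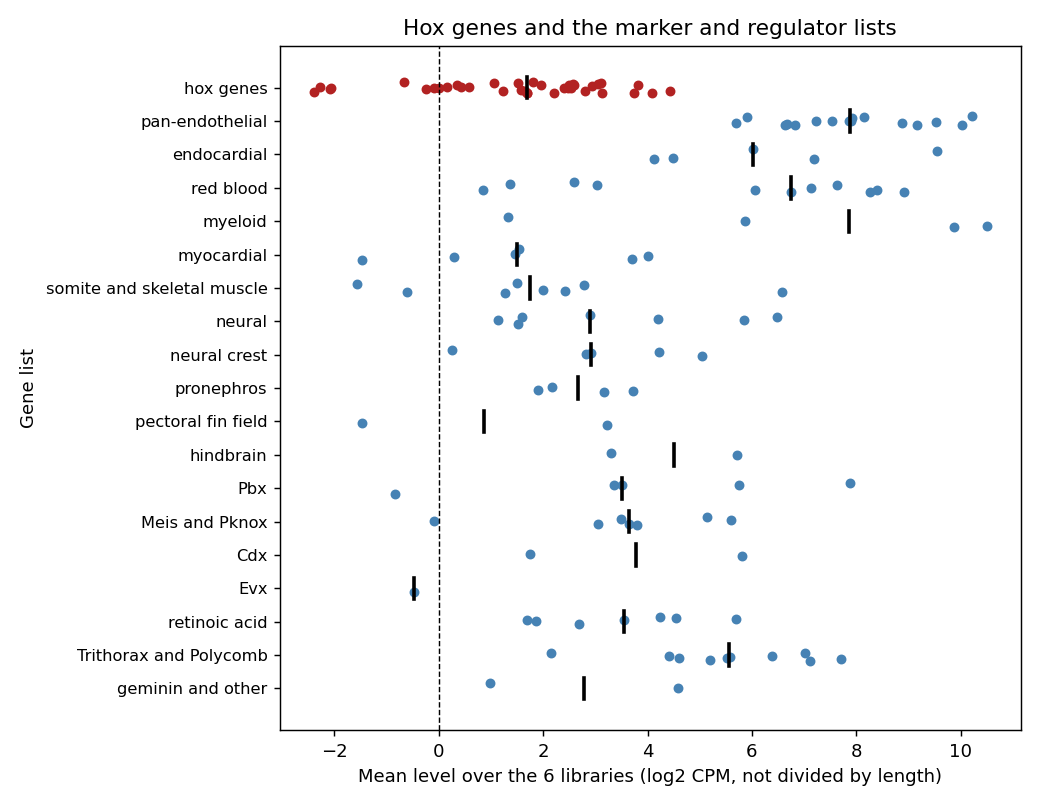
Mean level over the 6 libraries in log2 CPM, not divided by length, of the 37 hox genes (red) and of each marker or regulator list (blue), with 1 point per gene, small vertical jitter for view only, the median as a bar and the 1 CPM minimum dashed. The median of the 37 hox genes is 1.69 log2 CPM, and that of the 46 found in either way, not drawn, is 2.01. The myocardial list has a median of 1.50 and the muscle list one of 1.74 log2 CPM. The pan-endothelial points all lie at 5.69 log2 CPM or more. Levels of the lists were not compared, since no lengths were used.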

How the data were processed

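GFP-positive cells of 2 zebrafish lines, with 3 libraries each, were sequenced after Smart-seq2 amplification. The authors aligned and counted the reads with Rsubread on GRCz11 and then used limma; versions, count filter and normalization are not given in the sources used here. The deposited log2 values are the authors' mean log2 CPM of each gene over all libraries. The table also holds the authors' own comparison of the lines (log2 fold changes with confidence limits, t-statistics, log-odds and p-values), which was not used. Values and depth per library were not used, so no test between the lines was run and no spread can be given. There are 3 replicates per line, and whether they come from separate crosses or sorts is not given in the sources used here.

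Members, lists and the minimum of 1 CPM were chosen with earlier results of these data known. Genes at or above 1 CPM were named with their level, as were the lowest of each cluster and partners of named genes. Where the table had no symbol, a gene name list was used (18622 of 19722 identifiers matched); RefSeq GRCz12tu gave only gene order and overlap. Alternatives were minima of 0.5, 2 and 5 CPM, members by the gene name list, other paralogue groupings, and leaving out overlapping genes. Planned levels per coding length were not computed because no lengths were used. Percentiles are ranks among all genes. Python 3.11.15, numpy 2.4.6, pandas 2.3.3 and matplotlib 3.10.9 were used.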

Additional observations from a re-analysis of the deposited data

How the results depend on the processing

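The 30 hox genes at 1 CPM or more became 33 at a minimum of 0.5 CPM, 25 at 2 CPM and 15 at 5 CPM, 39 with the gene name list, and 17 without the genes whose span meets another hox gene, a setting chosen after seeing the data. The share of all genes was counted only at 1 CPM. The median of all genes was 5.98 CPM, above the minimum of 5 CPM, and that of the hox genes was 3.23 CPM, below it. At 5 CPM the share of the hox genes was thus below that of all genes, unlike at 1 CPM. By cluster, a minimum of 0.5 CPM gave 5 genes in hoxaa in place of 3. At 2 CPM, hoxbb and hoxcb had 0 in place of 1 each. At 5 CPM, hoxba had 5, hoxca 2, hoxda 2, and hoxbb and hoxcb 0, while hoxab kept its count of 4. With the gene name list, a setting chosen after seeing the data for the clusters, hoxbb had 4 and hoxcb 2, and their shares of the summed CPM became 7.53% and 2.04%. The order by share changed too, with hoxca and hoxda then above hoxab. The fewer or more genes follow from the settings themselves.

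Over all groups, cluster medians in log2 CPM were 0.41 for hoxaa, 2.57 for hoxab, 1.52 for hoxca and 2.20 for hoxda. With groups 1 to 9 only, they were 1.07 for hoxaa, 2.76 for hoxab, 1.58 for hoxca and 2.10 for hoxda. The medians of hoxba and hoxbb, at 2.53 and 0.43, could not change, because these clusters have no listed gene above group 9. hoxcb, at -2.27 over all groups, has no listed gene in groups 1 to 9. With group 4 counted as anterior, the medians were 1.69 log2 CPM for the anterior and 1.96 for the central genes, so their order turned. With the gene name list they were 2.505 for the anterior and 2.08 for the posterior genes, and the central one was 1.69.

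The planned values per coding length, and with them the order of the genes by level and the differences within pairs, were not run. No paired analysis was possible because the values used are 1 mean over all libraries. For the same reason no library was left out. Depth per library was not analysed, so the precision of a level near the minimum is unknown.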
